A study of Homo sapiens with 4 samples.

Results

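The genes examined were 10 protein-coding genes that encode the machinery of RNA polymerase I (Pol I), out of 20033 protein-coding genes annotated on the primary chromosomes in GENCODE release 44. They were listed by name and role, and no measured value enters the rule, but earlier results of these data were known when they were chosen. The list comprised RRN3, UBTF, the selectivity factor subunits TAF1A, TAF1B, TAF1C and TAF1D, and the polymerase subunits POLR1A, POLR1B, POLR1C and POLR1E. All are transcribed by RNA polymerase II (Pol II), whose positions were profiled by chromatin immunoprecipitation and sequencing (ChIP-seq) in SK-OV-3, a human ovarian cancer line. RRN3 was stably silenced from a lentiviral hairpin vector (shRRN3), and control cells carried a hairpin to LacZ, a gene that human cells lack (shLacZ). Each hairpin had 1 Pol II library and 1 input library, and the deposited lists of Pol II peaks, 1 for each hairpin, were used here. The ChIP-seq methods do not say which RRN3 hairpin was used, or whether the cells were a clone or a pool.

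Pol I transcribes the tandem rRNA genes (rDNA) in the nucleolus. The selectivity factor SL1 consists of the TATA-binding protein and the TAF1 subunits. It recognises the rDNA promoter together with UBTF, the upstream binding factor, which also coats the transcribed repeats. RRN3 joins the polymerase to this promoter complex and so makes it competent to initiate. POLR1A and POLR1B form the catalytic centre, POLR1C is an assembly subunit that Pol I shares with Pol III, and POLR1E is particular to Pol I and stabilises the enzyme on its template.

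With a start peak defined as a peak whose midpoint lay within 1 kb of the annotated gene start, 1 of the 10 genes had a start peak in shLacZ and 7 had one in shRRN3. The gene with a start peak in both lists was TAF1D. TAF1A, TAF1B, POLR1A, POLR1B, POLR1C and POLR1E had a start peak in shRRN3 alone, and RRN3, UBTF and TAF1C had none in either list. Over all protein-coding genes the share with a start peak was 7.56% in shLacZ (95% Clopper-Pearson interval 7.20% to 7.94%) and 23.7% in shRRN3 (23.1% to 24.3%). Thus 1 of 10 stood near the background of its list and 7 of 10 stood above that of the longer list. The shRRN3 list was the longer by 3.58 times (14363 against 4014 peaks), and the depth behind either list is unknown from these files. With 1 library for each hairpin no test between hairpins was possible, and list length cannot be told apart from the hairpin.

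Stretches before the RefSeq starts of some of these genes (GRCh38.p14, each on its gene's strand and read 5′ to 3′) are shown. A shRRN3 start peak lay over each of them except that of RRN3. They run up to 200 bases before the start and stop at a canonical exon of a neighbouring protein-coding gene. The first 5 came from genes with a shRRN3 start peak, at chr2:9843274-9843473 (plus strand) for TAF1B, chr11:93741496-93741663 (minus strand) for TAF1D, chr2:86105887-86106086 (minus strand) for POLR1A, chr2:112542265-112542464 (plus strand) for POLR1B and chr6:43516927-43517088 (plus strand) for POLR1C. The last, at chr16:15094273-15094472 (minus strand), belongs to RRN3, which had no peak. Capitals mark the word CCGGAAG or its reverse complement CTTCCGG, the core of sites that ETS family factors bind. The printed stretch of POLR1A held no copy of this word. Those of TAF1A, UBTF and TAF1C held none either and are not printed, although a shRRN3 start peak covered all 200 bases of TAF1A.
TAF1B: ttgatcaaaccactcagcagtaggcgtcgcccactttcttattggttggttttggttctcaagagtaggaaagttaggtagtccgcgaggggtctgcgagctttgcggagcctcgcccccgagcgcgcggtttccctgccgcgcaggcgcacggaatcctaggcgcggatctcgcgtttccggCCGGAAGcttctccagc
TAF1D: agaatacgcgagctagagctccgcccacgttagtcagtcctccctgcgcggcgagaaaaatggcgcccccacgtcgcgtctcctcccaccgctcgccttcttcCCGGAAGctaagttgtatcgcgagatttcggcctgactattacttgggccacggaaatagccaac
POLR1A: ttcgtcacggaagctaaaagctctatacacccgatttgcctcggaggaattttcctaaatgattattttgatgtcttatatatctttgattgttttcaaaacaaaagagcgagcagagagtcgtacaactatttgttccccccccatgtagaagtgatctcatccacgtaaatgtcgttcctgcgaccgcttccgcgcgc
POLR1B: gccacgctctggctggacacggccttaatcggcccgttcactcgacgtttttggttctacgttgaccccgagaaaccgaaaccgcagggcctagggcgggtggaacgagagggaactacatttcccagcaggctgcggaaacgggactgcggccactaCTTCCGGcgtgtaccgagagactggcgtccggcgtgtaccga
POLR1C: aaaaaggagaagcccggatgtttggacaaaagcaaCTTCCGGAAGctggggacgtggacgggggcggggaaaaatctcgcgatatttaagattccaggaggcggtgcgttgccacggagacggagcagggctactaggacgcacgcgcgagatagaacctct
RRN3: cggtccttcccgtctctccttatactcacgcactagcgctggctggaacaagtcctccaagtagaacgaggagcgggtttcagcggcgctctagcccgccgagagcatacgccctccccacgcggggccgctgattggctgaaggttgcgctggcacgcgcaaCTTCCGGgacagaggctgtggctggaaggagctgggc

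A shRRN3 peak covered the whole printed stretch of TAF1B, POLR1A, POLR1B and POLR1C, and 139 of the 168 bases of TAF1D. The 168 bases of TAF1D and the 162 bases of POLR1C are the full gaps to the nearest divergent canonical start of a protein-coding gene. In POLR1C the word occurs on both strands, as overlapping copies. In the RefSeq table of promoters (250 bases before to 50 after a start), 9 of the 10 genes had an entry, all but POLR1E. The word CCGGAAG was present on either strand in 7 of these 9, the exceptions being UBTF and POLR1A, against 16.7% of 15345 protein-coding genes. It was thus found in genes with a shRRN3 start peak and in RRN3 and TAF1C, which had none. In TAF1A and TAF1C it was found only outside the stretches of 200 bases described above. The word CTCGCGA was present in 4 of 9 (TAF1B, TAF1D, POLR1B and POLR1C), against 4.11% of all genes. These 4 had a shRRN3 start peak, as did TAF1A and POLR1A, which lacked the word. How often genes with this word have a start peak was not computed. The GC box GGGCGG was present in 4 of 9 against 65.1%, and the CCAAT box in 4 of 9 against 42.5%. Neither the E-box CACGTG nor TATAAA was found in any of the 9, against 10.9% and 12.4%. These matches are a description of sequence and were searched after the promoters had been seen.

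**Figure D1:**
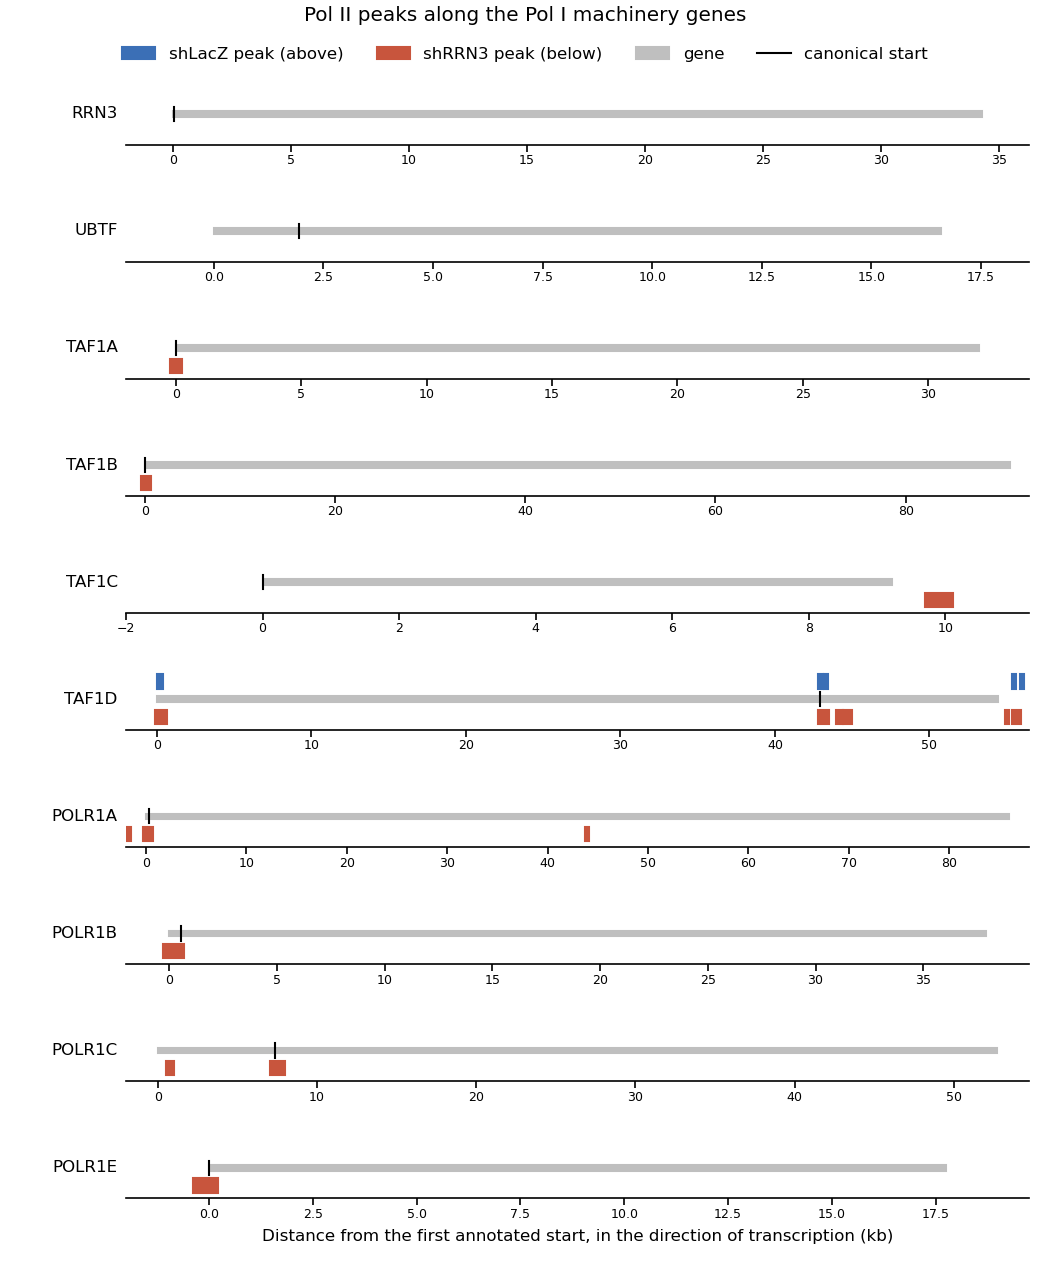
Pol II peaks along the 10 genes, with distance from the first annotated start in kb on each horizontal axis, whose scale differs between genes. Blue boxes above a gene are shLacZ peaks and red boxes below it are shRRN3 peaks (the narrowest boxes are widened to be visible), the black tick is the start of the canonical transcript, and blue boxes occur at TAF1D alone.

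All peaks that touched a gene or the 2 kb on either side were then recorded. In shLacZ there were 5 such peaks, all at TAF1D, and in shRRN3 there were 16, of which 6 were at TAF1D and 10 at the 7 other genes. At least 1 peak was found for 1 of 10 genes in shLacZ and for 8 of 10 in shRRN3, where 13.4% and 36.9% of all protein-coding genes had one. The ratio of peak numbers at these genes was 3.20, close to the 3.58 of the whole lists, but it rested on TAF1D for every shLacZ peak. Covered bases came to 1414 in shLacZ and 9839 in shRRN3, which was 6.96 times as many, where the whole lists differed by 4.72 times. The shLacZ bases were all at TAF1D, and the best 4014 shRRN3 peaks covered 4557 bases at the 10 genes. The median number of peaks was 0 in shLacZ and 1 in shRRN3 per gene, and 0 in both lists over all protein-coding genes. The 10 genes spanned 9224 to 90974 bp with a median of 36091.5 bp, longer than the 27471 bp of protein-coding genes, and a longer gene offers more sequence in which a peak can fall.

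RRN3, the gene that the hairpin targets (chromosome 16, 15060033 to 15094311, minus strand), had 0 peaks in shLacZ and 0 in shRRN3. The lists therefore held no Pol II peak at RRN3 to compare between the hairpins. Pol II peaks do not measure the mRNA or protein that a hairpin lowers, so they are no check of the knockdown. The nearest peak lay 2256188 bp away in shLacZ and 695069 bp away in shRRN3. RRN3 sat in a stretch without any peak that spanned 5.99 Mb in shLacZ, with 30 protein-coding genes inside it, and 4.43 Mb in shRRN3, with 27. Only 6.06% of protein-coding genes in shLacZ and 5.53% in shRRN3 were as far or farther from a peak, where the median distances were 201668 bp and 25388 bp. RRN3 shares sequence with the pseudogenes RRN3P1, RRN3P2 and RRN3P3 on the same chromosome, and these had 0 peaks in either list. How reads that match several copies were treated is not stated, and the part of this in the absence of peaks was not tested.

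UBTF (chromosome 17, 44205033 to 44221626, minus strand), which encodes the HMG box protein that binds the rDNA promoter and repeat, also had 0 peaks in both lists. Its canonical transcript starts 1951 bp inside the gene's span, and a peak was missing there as well. The nearest shRRN3 peak had a score of 60.12 and lay 3976 bp from the gene, past its end, and the nearest shLacZ peak lay 62956 bp away. Within 5 kb of the 10 genes the limit of 2 kb left out this peak and a shRRN3 peak of score 55.02, 4346 bp past the POLR1B end. The peaks farthest out inside that limit were at POLR1A, 1705 bp before the gene start, and at TAF1D, 1531 bp past the gene end. The sequence before the UBTF start was rich in G and C, at 78.5% of the 200 bases, against 64.5% for RRN3 and 43.5% for POLR1A.

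The SL1 subunits differed among themselves. TAF1A (chromosome 1, 222557902 to 222589933, minus strand) had no shLacZ peak and a single shRRN3 peak of 501 bp (222589687 to 222590187), centred 4 bp before its start. Its score of 87.06 ranked 5430 of 14363, so that 62.1% of shRRN3 peaks scored lower. TAF1B (chromosome 2, 9843443 to 9934416, plus strand), whose product has a zinc ribbon like that of the Pol II factor TFIIB, had no shLacZ peak either. Its shRRN3 peak (9842983 to 9844095) was centred 65 bp past the canonical start, in exon 1, with a score of 89.14 and rank 5184. At 1113 bp it was the widest of the peaks at these 10 genes, while the median shRRN3 start peak had a width of 608 bp. Scores of TAF1A and TAF1B stood near the median of 86.29 over 5077 shRRN3 start peaks. The nearest shLacZ peaks were 122657 bp and 211812 bp from these peaks.

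TAF1C (chromosome 16, 84177847 to 84187070, minus strand) had no peak at its start in either list. Its only peak was in shRRN3 (84176961 to 84177367), centred 683 bp past the gene end, with a score of 58.35 and rank 10906, in the lower part of the list. That position also lies inside DNAAF1, a gene for assembly of ciliary dynein arms, so it cannot be assigned to TAF1C from its position. TAF1C is the shortest of the 10 genes.

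TAF1D (chromosome 11, 93729948 to 93784391, minus strand) was the only one of the 10 with Pol II peaks in shLacZ. It had 5 peaks in shLacZ and 6 in shRRN3. Among all protein-coding genes, 0.21% had 5 or more peaks in shLacZ and 1.3% had 6 or more in shRRN3. The peaks lay at 3 sites. TAF1D hosts several small nucleolar RNAs in its introns, and its canonical transcript starts 42896 bp inside the annotated span.

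**Figure D2:**
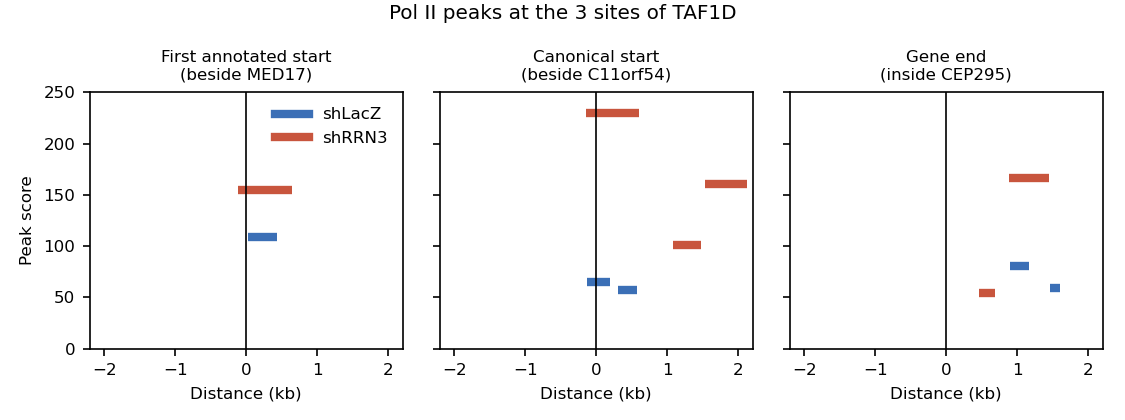
Pol II peaks at the 3 sites of TAF1D, with distance in kb from the first annotated start, the canonical start and the gene end on the horizontal axes and the authors' peak score on the vertical axis. Each bar spans a peak from edge to edge, and shRRN3 scores (red) cannot be compared in size with shLacZ scores (blue), since scores depend on depth.

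At the canonical start, shLacZ had a pair of peaks with midpoints 26 bp and 438 bp into the gene, of 324 bp and 261 bp. Their scores were 65.15 (rank 2071 of 4014) and 56.84 (rank 2877), both under the shLacZ median of 66.05. In shRRN3 a single peak of 734 bp (93740901 to 93741634) spanned both, with a score of 230.01 and rank 652, so that 95.5% of its list scored lower. It was the best ranked of the 16 shRRN3 peaks. In shLacZ 48.3% and 28.3% of peaks scored lower than this pair. These shares come from lists of unequal length, and a merged peak is set beside a split pair, so no change is read from them. In shRRN3 alone, further peaks lay 1282 bp and 1828 bp past the canonical start in intron 1, with scores of 100.8 and 161.08. The canonical start of C11orf54 lies 177 bp upstream on the opposite strand, so the peaks at the start cannot be assigned to TAF1D rather than its neighbour, whereas those in intron 1 lay within TAF1D and no other protein-coding gene.

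At the first annotated start, shLacZ had a peak of 408 bp (93783966 to 93784373) with a score of 108.9 and rank 693, and shRRN3 had a peak of 753 bp (93783754 to 93784506) with a score of 155.06 and rank 1665. The share of peaks that scored lower was 82.7% in shLacZ and 88.4% in shRRN3. The midpoints were 113 bp and 152 bp before the start of MED17, a subunit gene of the Mediator complex on the opposite strand. The start peak by which TAF1D was counted in both lists was therefore also a MED17 peak, and the canonical start gave the same count.

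Past the TAF1D end, both lists had a peak centred about 1 kb on, at 1037 bp in shLacZ (93728778 to 93729044, score 80.38) and at 1171 bp in shRRN3 (93728496 to 93729058, score 166.61). The shRRN3 peak covered all 267 bp of the shLacZ peak. A further shLacZ peak of score 59.08 lay 1531 bp past the end, with its edge 2 bp short of the shRRN3 peak, and a further shRRN3 peak of score 54.55 lay 574 bp past the end. All 4 fell inside CEP295, a centrosomal gene on the opposite strand whose end overlaps that of TAF1D. Across the 3 sites, 4 of the 5 peaks seen in shLacZ shared bases with a shRRN3 peak.

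The catalytic subunits had peaks in shRRN3 alone. POLR1A (chromosome 2, 86020216 to 86106155, minus strand), the largest subunit, had 0 peaks in shLacZ and 3 in shRRN3. The start peak (86105468 to 86106481) was 1014 bp wide, was centred 88 bp before the canonical start and had a score of 149.31 and rank 1815. The others were a peak of 281 bp in intron 14 with a score of 79.66 and a peak of 289 bp and score 53.88 that lay 1705 bp before the gene, inside PTCD3. PTCD3, which encodes a protein of the mitochondrial ribosome, starts 349 bp from POLR1A on the opposite strand, and the start peak spanned both starts, with its midpoint between them. The nearest shLacZ peak to the start peak was 92853 bp away.

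POLR1B (chromosome 2, 112541915 to 112579818, plus strand), the second of the catalytic subunits, had 0 peaks in shLacZ and 1 in shRRN3. This peak of 974 bp (112541656 to 112542629) was centred 227 bp past the first annotated start and 323 bp before the canonical start, and covered both. Its score of 87.77 (rank 5324) was close to those of TAF1A and TAF1B. It had no partner start on the other strand within 1 kb.

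POLR1C and POLR1E also had peaks in shRRN3 alone. POLR1C (chromosome 6, 43509702 to 43562419, plus strand) had 0 peaks in shLacZ and 2 in shRRN3. The stronger (43516771 to 43517672) was 902 bp wide, was centred 132 bp past the canonical start and had a score of 161.5 and rank 1516. The weaker (43510217 to 43510731) had a score of 59.68 and rank 10337, and it was the peak within 1 kb of the first annotated start of POLR1C, but its midpoint lay 128 bp before the start of LRRC73. YIPF3, a Golgi membrane protein gene, starts 163 bp from the canonical start of POLR1C on the opposite strand. POLR1E (chromosome 9, 37485948 to 37503697, plus strand) had 0 peaks in shLacZ and 1 peak of 584 bp in shRRN3 (37485572 to 37486155), centred 85 bp before its start, with a score of 60.8 and rank 10066. The POLR1E peak was among the weaker peaks of its list, as 29.8% scored lower.

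**Figure D3:**
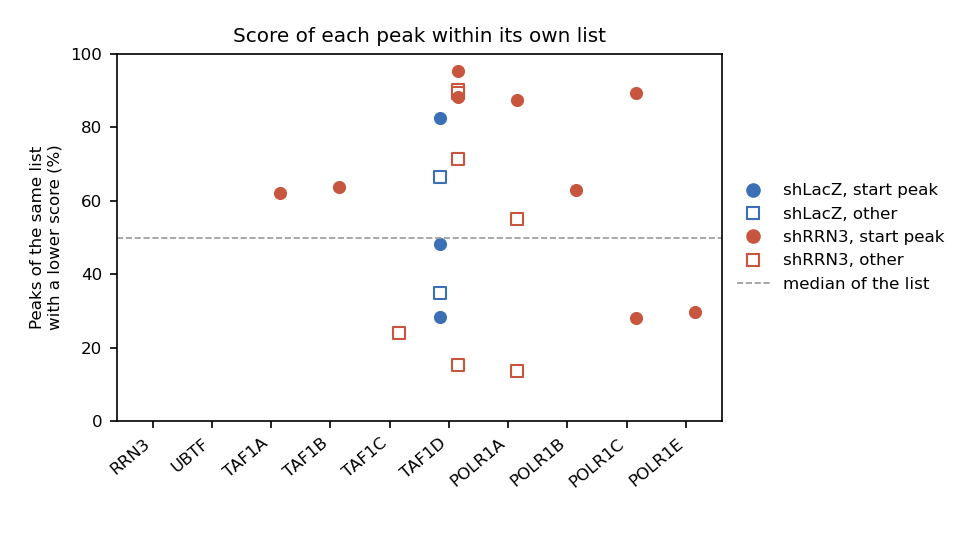
Standing of each recorded peak within its own list, as the percentage of peaks in that list with a lower score, for the 10 genes. Filled circles lie within 1 kb of a first or canonical start, open squares lie elsewhere, and shRRN3 start peaks run from 28% at POLR1C to 95.5% at TAF1D.

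Ordered by score at the annotated gene start, the shRRN3 start peaks were TAF1D (155.06), POLR1A (149.31), TAF1B (89.14), POLR1B (87.77), TAF1A (87.06), POLR1E (60.8) and POLR1C (59.68). At canonical starts TAF1D (230.01) and POLR1C (161.5) had other peaks and stood first and second, with the rest in the same order. No spread between replicates was available, so the order of neighbours in this series could not be tested. At canonical starts, and not at annotated gene starts, the highest 3 were the genes with a divergent protein-coding start within 1 kb. The canonical start peaks of POLR1A and POLR1C were in the highest quintile of shRRN3 start peak scores. Of its 1014 peaks, 54.8% (51.7% to 57.9%) were overlapped by a shLacZ peak, and those of POLR1A and POLR1C were not. Both stood near its lower end, as it ran from 142.6 to 1580. In the quintile below it 28.1% were overlapped (25.4% to 31%), so 54.8% need not be the share at their scores. The canonical start peaks of TAF1A, TAF1B and POLR1B were in the middle quintile, in which 19.0% were overlapped (16.6% to 21.5%). That of POLR1E was in the second lowest, in which 10.7% were (8.86% to 12.7%). Of the start peaks of these 7 genes, those overlapped by a shLacZ peak were at TAF1D.

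Across all genes, start peaks were also compared between genes with and without a partner start on the other strand. Of 2007 protein-coding genes with a protein-coding start on the other strand within 1 kb of their canonical start, 52.9% had a peak at that start in shRRN3 and 15.7% in shLacZ. Of the 18026 other genes, 22.4% and 7.34% had one. Over all genes the shares at canonical starts were 25.4% in shRRN3 and 8.18% in shLacZ. Among the 10 genes examined, the 3 with a partner (TAF1D, POLR1A and POLR1C) all had a peak at the canonical start in shRRN3 and 1 had it in shLacZ. Of the 7 without a partner, 4 had it in shRRN3 and 0 in shLacZ.

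In terms of patterns, 1 gene had a start peak in both lists, 0 in shLacZ alone, 6 in shRRN3 alone and 3 in neither. Over all protein-coding genes these patterns took 6.41%, 1.15%, 17.3% and 75.1%. With only the best 4014 peaks of shRRN3, the number that shLacZ held, start peaks were left at TAF1D and POLR1A, 2 of the 10 genes, where 9.91% of all protein-coding genes had one. The stronger POLR1C peak was kept too but lies more than 1 kb from the first annotated start.

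Base composition was read in the 200 bp around each midpoint. Over all peaks at an annotated or canonical start the median GC share was 65.5% in shLacZ (1530 peaks) and 64.5% in shRRN3 (5077 peaks). The strongest start peaks of POLR1A (44%), TAF1A (54.5%), POLR1C (58.5%) and POLR1B (60.5%) were below that median. Those of TAF1B (71.0%), TAF1D at the canonical start (67.0%) and POLR1E (71.5%) were above it. The peak in intron 1 of TAF1D with a score of 161.08 had 32.5%, the lowest GC share among the recorded peaks.

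The other genes of the pathway were taken from lists made by role. Of 15 further genes used by Pol I, 7 had a start peak in shLacZ and 9 in shRRN3, and all 7 were among the 9. With only the best 4014 shRRN3 peaks the direction turned, to 4 in shRRN3 against 7 in shLacZ, as POLR1G, CAVIN1 and SMARCA5 were among those that dropped out. Of the remaining Pol I subunits (POLR1D, POLR1F, POLR1G and POLR1H), only POLR1G had a start peak, with a score of 83.13 in shLacZ (rank 1243) and 76.09 in shRRN3 (rank 6900). Among the 5 subunits common to the 3 nuclear polymerases, POLR2K and POLR2L had one in both lists and POLR2H in shRRN3 alone. POLR2K stood at rank 1701 of 4014 in shLacZ (score 70.98) and at rank 931 of 14363 in shRRN3 (score 198.09). Of 6 other Pol I factors, CAVIN1 (transcript release), BAZ2A and SMARCA5 (nucleolar chromatin remodelling) and TAF12 (a further SL1 subunit) had start peaks in both lists. The termination factor TTF1 had one in shRRN3 alone, with a score of 58.68, and TBP had none within 1 kb. TBP had 4 shRRN3 peaks and 0 shLacZ peaks in the gene or 2 kb around it. A start window of 2 kb counted TBP in shRRN3. TAF12 scored highest of the 15, at rank 96 in shLacZ and rank 51 in shRRN3. At canonical starts the counts over the 15 genes were 5 in shLacZ, without BAZ2A and TAF12, and 8 in shRRN3, without BAZ2A.

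**Figure D4:**
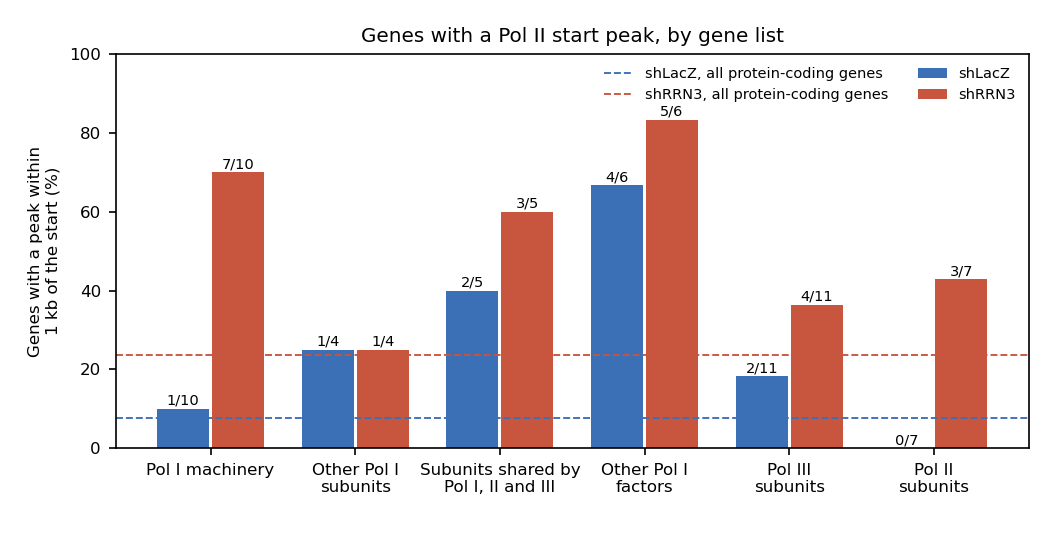
Share of genes with a Pol II peak midpoint within 1 kb of the gene start, in percent, for the 10 Pol I machinery genes and 5 lists of related genes, with the number of genes over each bar. Dashed lines give the share of all 20033 protein-coding genes, 7.56% in shLacZ and 23.7% in shRRN3.

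Genes for subunits of the other polymerases gave smaller shRRN3 shares than the 10 genes (70%), without a test of the difference. The 4 remaining Pol I subunits, at 25%, stood lower than the Pol III (36.4%) and Pol II (42.9%) genes. The shared subunits stood at 60%, as did the 15 other Pol I genes together, and the 6 other Pol I factors at 83.3%. A high shRRN3 share was thus not particular to the 10 genes. Of 11 Pol III subunit genes, 2 had a start peak in shLacZ and 4 in shRRN3, and of 7 Pol II subunit genes, 0 and 3 did. At canonical starts the counts were 3 and 4 for Pol III and 1 and 3 for Pol II. The Pol II genes with a shRRN3 peak at the annotated gene start were POLR2B, POLR2C and POLR2D, with scores of 64.81, 84.52 and 57.52. The template of Pol I was also examined. The 3 copies of 45S rDNA that RefSeq places on chromosome 21 had 0 peaks in either list, and reads matching several copies may have been handled in a way that is not stated.

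Facts of the whole lists that bear on these values are few. Widths in shLacZ had a median of 304 bp, against 267 bp for the peaks at the 10 genes, and widths in shRRN3 had a median of 432 bp, against 573.5 bp. The peaks at the 10 genes include start peaks, and shRRN3 start peaks over all genes had a median of 608 bp. Of 8 genes that mark epithelial or ovarian cells or the line itself, PAX8 had a start peak in both lists, KRT8 and KRT18 (which share a single peak) and EPCAM had one in shRRN3 alone, and KRT7, MUC16, WT1 and ERBB2 had none. At canonical starts 3 of the 8 had a peak in shRRN3. Of 5 markers of other cell types, 0 had a start peak in either list. Over all protein-coding genes 7.56% in shLacZ and 23.7% in shRRN3 had one, so 0 of 5 tells little. KRT7 and PECAM1, a marker of endothelium, each had a shRRN3 peak away from the start.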

How the data were processed

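Pol II ChIP-seq libraries of SK-OV-3 cells were sequenced on a BGISEQ-500 instrument by the authors, who called peaks separately in each library with MACS, as the peak names show. The version, aligner, duplicate handling and use of the input are not given in the sources used here. The build is hg38 per the labels. The deposited score of a peak was taken as 10 times the −log10 of its p-value, since the lowest score of 50 is a p of 1e-05 on that scale. It depends on depth and was used to rank peaks within a list, except in the alternative that set the same score limit in both lists. The lists held 4014 (shLacZ) and 14363 (shRRN3) peaks. Intervals are exact Clopper-Pearson intervals at 95% and cover counting error only.

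Genes came from GENCODE release 44. A peak was recorded at a gene when it shared at least 1 bp with the gene or 2 kb around it. Gene starts and ends bound the annotated span, and the canonical start is that of the Ensembl canonical transcript. Ranks count from 1 for the highest score. Promoter sequences came from RefSeq (GRCh38.p14), and the 13 entries for these genes matched the hg38 genome. The named genes were the 10 genes, their neighbours with a start near a peak, and members of the fixed lists. The 10 genes and the lists were chosen with earlier results of these data known. Other windows, starts, overlap rules, scores and list lengths were tried as alternatives. The window code was tested on simulated peaks. Python 3.11.15, numpy 2.4.6, scipy 1.17.1 and matplotlib 3.10.9 were used. No p-value was computed, since each hairpin had 1 library. Input libraries were not used.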

Additional observations from a re-analysis of the deposited data

How the results depend on the processing

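Of 88 values under alternatives, 74 stayed within 1.5 times the reported count and 14 moved beyond that. The 74 include the shLacZ values under a shortened shRRN3 list, which could not change. Reducing the shRRN3 list to the length of shLacZ moved the most. It left 2 of 10 genes with a start peak in shRRN3, 1 in shRRN3 alone and 8 in neither list, 3 genes with any peak, 6 peaks, 4557 covered bases and 4 of the 15 other Pol I genes with a start peak. By construction this drops the lower-scoring peaks of shRRN3 alone. With a score of at least 66.05, the shLacZ median, in both lists, 5 genes had a start peak in neither list, and shLacZ kept 2 peaks and 675 covered bases. Scores depend on depth, so this limit may not be equally strict in the 2 lists. Counting peaks inside the gene alone left 3 in shLacZ. Without TAF1D, shLacZ had 0 peaks and 0 covered bases and shRRN3 had 10 peaks, an alternative chosen after the data were seen, as was the canonical start. A start window of 0.5 kb left out POLR1C in shRRN3 (6 genes), and 5 kb around the genes added UBTF (9 genes). The number of genes with a start peak in shLacZ was 1 under each of its 7 alternatives, of which the shortened shRRN3 list could not change it. No paired analysis was possible because each hairpin had 1 library. The depth of the libraries, which limits what either list can hold, is unknown from these files.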
